A study of Homo sapiens with 6 samples.

Results

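The genes of serine synthesis and of the one-carbon cycle that serine feeds were followed in 2 human breast cancer cell lines by RNA sequencing. They are 10 of the 17039 genes in the deposited table: the serine synthesis enzymes PHGDH, PSAT1 and PSPH, the folate enzymes SHMT1, SHMT2, MTHFD1, MTHFD1L and MTHFD2, and the transporters SLC1A4 and SLC1A5. The set was chosen by function and with this same comparison known, in which PHGDH was among the genes with the largest increase, so the values of the 10 genes below are a description and carry no p-value. MDA-MB-231 is a triple-negative breast cancer line, and 231-BR is a brain-seeking variant derived from it. Each line gave 3 libraries of poly(A) RNA, and the question was which genes differ between the variant and its parental line.

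Both lines were grown in DMEM with fetal bovine serum and penicillin-streptomycin, and no other treatment is named. The 231-BR medium also held the selection drug G418, so the drug and the line cannot be told apart. Each group is one established line, and what is seen is a difference between these lines rather than between brain metastases and primary tumors. The titles name the same line for all libraries of a group, whereas the cell line field counts upward within each group from 231-BR and from MDA-MB-231, and the libraries were grouped by title. The samples are called independent, but separate cultures are not described, so the spread between libraries may be technical.

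Serine is made from the glycolytic intermediate 3-phosphoglycerate in a chain of 3 steps. PHGDH oxidizes it in the committed first step, PSAT1 transfers an amino group from glutamate, and PSPH removes the phosphate. Serine hydroxymethyltransferases then pass a carbon of serine to folate and leave glycine, and the folate-bound carbon is used for purines, thymidylate and methionine. The folate reactions run in parallel in the cytosol and in the mitochondria. Cells can also take serine up, and the brain is known as a tissue with little free serine outside its cells, which is why the synthesis pathway has been studied in brain metastasis.

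PHGDH was the one gene of the set that was present in 231-BR and nearly absent in MDA-MB-231. Levels are given as FPKM, the fragments assigned to a gene divided by its transcript length and by the size of the library. The 3 libraries of 231-BR held 29.03, 29.6 and 29.64 FPKM of PHGDH, and those of MDA-MB-231 held 0.05, 0.02 and 0.02 FPKM. The groups did not overlap, and the lowest 231-BR library stood 581 times above the highest MDA-MB-231 library. The means were 29.4 ± 0.341 and 0.03 ± 0.0173 FPKM (SD, n = 3 each). Values this low in MDA-MB-231 rest on few reads and were deposited with 2 decimals, so the size of the ratio is rough while its direction is not. On the log2(FPKM + 0.1) scale, which shrinks the differences of low genes, PHGDH was 7.84 ± 0.10 (SE) higher in 231-BR, the number 4 increase among 13465 genes tested. Its level stood at the 83.2 percentile of all genes in 231-BR and at the 16.3 percentile in MDA-MB-231.

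**Figure D1:**
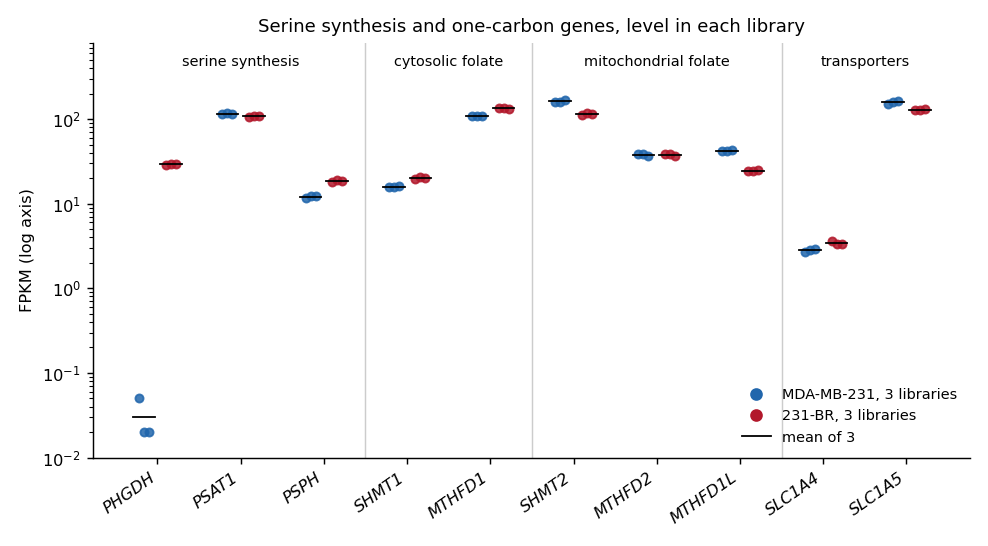
FPKM of the 10 genes (log axis) in each of the 3 libraries of MDA-MB-231 (blue) and of 231-BR (red), grouped by role, with the mean of 3 as a black line. PHGDH lies at 29.03 to 29.64 FPKM in 231-BR and at 0.02 to 0.05 FPKM in MDA-MB-231, while the other 9 genes have log2 fold changes between -0.79 and 0.61.

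The other 9 genes were expressed in both lines at a mean of at least 1 FPKM, and they differed by far less. Of the 10 genes, 5 had all 231-BR libraries above all MDA-MB-231 libraries (PHGDH, PSPH, SHMT1, MTHFD1 and SLC1A4), 4 had them all below (PSAT1, SHMT2, MTHFD1L and SLC1A5), and MTHFD2 overlapped. Across all genes tested, 44.9% did not overlap with 231-BR higher and 33.5% did not overlap with 231-BR lower, so such separation was common between these lines. An absolute log2 fold change over 1 was reached by PHGDH alone, and the other 9 genes ranged from -0.79 to 0.61 with a median of -0.01. All genes tested had a median of 0.08 and a median absolute value of 0.38. For any one gene, 3 libraries against 3 allow an exact two-sided permutation p-value of 0.1 at the lowest.

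The later steps of serine synthesis were present in both lines. PSAT1 was among the most abundant of the set, with 106.67, 108.77 and 108.43 FPKM in 231-BR and 113.84, 118.91 and 113.34 FPKM in MDA-MB-231. It was lower in 231-BR by a small margin without overlap, with a log2 fold change of -0.10 ± 0.03 (SE), and 14.4% of the genes tested had a smaller absolute change. PSPH reached 17.86, 19.09 and 18.54 FPKM in 231-BR and 11.81, 12.19 and 12.31 FPKM in MDA-MB-231. All 231-BR libraries were higher, with a log2 fold change of 0.61 ± 0.04, the highest of the set after PHGDH. PHGDH accordingly made up 18.9% ± 0.0683 of the summed FPKM of the 3 enzymes in 231-BR and 0.0237% ± 0.014 in MDA-MB-231 (SD, n = 3 each). MDA-MB-231 thus carried the transcripts of the second and the third enzyme at 115 and 12.1 FPKM with next to none of the first.

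Reads of some of these genes can also match pseudogene copies, which the deposited table does not list. GENCODE release 29 names 7 pseudogenes of MTHFD2, 4 of PSAT1, and 1 each of PSPH, SHMT1 and MTHFD1, and none of PHGDH under its name. How the counting treated such reads is not given in the sources used here, and their part in the values of these 5 genes was not tested.

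PHGDH lies on the plus strand of chromosome 1 (chr1:119648411-119744226, GRCh38, GENCODE release 29), and PSAT1 on the plus strand of chromosome 9 (chr9:78297143-78330093). Promoter sequences were taken from RefSeq (GRCh38.p14) as 250 bases before and 50 after a transcription start, and 8 of the 10 genes matched with 14 starts in all. PSPH and SHMT2 had no entry. The letters searched on both strands were CCAAT (the CCAAT box), GGGCGG (a GC box), CACGTG (the E-box read by MYC) and TGATGNAAN, the C/EBP-ATF element through which ATF4 acts. The PHGDH and PSAT1 promoters both held CCAAT, shown in capitals with 10 bases on either side, since they belong to the enzyme that differed most and to its partner in the next step:
PHGDH (chr1:119711853-119711877, plus strand): gtatttccgtCCAATcaaaaggaga
PSAT1 (chr9:78297063-78297087, plus strand): acagcacgggCCAATggggcgccga

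The CCAAT of PHGDH began 71 bases before its RefSeq start. The 250 bases before that start overlap GENCODE exons, and whether the CCAAT itself lies in one was not examined. PSAT1 held 3, beginning 113, 83 and 52 bases before its start. The 250 bases before the PSAT1 start (chr9:78296875-78297124, plus strand) overlap no GENCODE exon and are given whole, with each CCAAT in capitals, as the promoter of the gene of this chain that was high in both lines:
PSAT1: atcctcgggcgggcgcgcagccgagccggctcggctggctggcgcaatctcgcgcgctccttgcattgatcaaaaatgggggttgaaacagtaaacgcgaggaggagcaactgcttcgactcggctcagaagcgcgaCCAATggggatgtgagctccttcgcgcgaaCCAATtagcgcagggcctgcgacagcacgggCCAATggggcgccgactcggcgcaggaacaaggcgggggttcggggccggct

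The PHGDH promoter had 15 CpG dinucleotides in 300 bases, close to the median of 14 over all 35116 promoters, whereas the PSAT1 promoter had 37, more than 88.7% of them. CCAAT was found in 34.61% of all promoters and GGGCGG in 44.95%, so both are common matches. Within the set, CCAAT was found for all 8 genes with a promoter entry and GGGCGG for 5, so CCAAT is not particular to PHGDH and PSAT1. A gene was counted if any of its starts matched, so these counts cannot be set against the shares of single promoters. The rarer TGATGNAAN (3.61% of promoters) and CACGTG (7.26%) were not among the letters of these windows for either gene. These matches describe the sequence and do not show binding.

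PHGDH stood apart from its neighbours on chromosome 1, where the 5 nearest protein-coding genes of the table on each side were examined. ZNF697, a zinc finger gene next to it, read 5.32, 5.21 and 5.65 FPKM in 231-BR and 10.79, 10.74 and 10.59 FPKM in MDA-MB-231, so it was lower where PHGDH was higher (log2 fold change -0.98 ± 0.05, limma, adjusted p = 2.9e-08). REG4 on the other side was at 0.03 FPKM or less in every library. NOTCH2, the receptor gene beyond it, was higher in 231-BR by 0.54 ± 0.03 (limma, adjusted p = 7.4e-08). Among the rest, WARS2 did not pass the test (0.06 ± 0.04, limma, adjusted p = 0.15), SEC22B was slightly lower (-0.11), and NBPF8 (-0.61) and NBPF26 (-0.50), 2 members of a family of near-identical copies whose values are therefore uncertain, were lower. TBX15, HSD3B2 and HSD3B1 were near 0 in both lines and were not tested. Over the 20 nearest tested genes, 10 on each side, the median log2 fold change was -0.13 with quartiles of -0.52 and 0.09, against 7.84 for PHGDH.

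**Figure D2:**
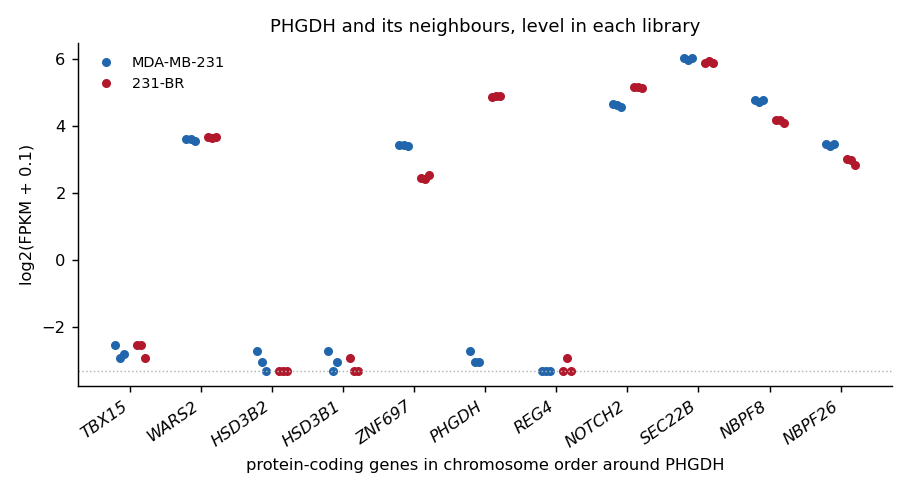
Level, as log2(FPKM + 0.1), of PHGDH and the 5 protein-coding genes on each side in chromosome order, for the 3 libraries of MDA-MB-231 (blue) and of 231-BR (red); the dotted line marks 0 FPKM. PHGDH moves from the level of the silent genes TBX15, HSD3B2, HSD3B1 and REG4 in MDA-MB-231 to 29.4 FPKM in 231-BR, while the expressed neighbours have log2 fold changes between -0.98 and 0.54.

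The genes whose pattern over the 6 libraries was most like that of PHGDH, by Euclidean distance of log2(FPKM + 0.1), were CHRDL1 (0.41), SSX1 (0.45), ICAM2 (1.10), MAGEA6 (1.18) and ADGRE1 (1.25). CHRDL1 encodes a secreted antagonist of bone morphogenetic proteins and read 27.43, 27.11 and 27.23 FPKM in 231-BR and 0.07, 0.04 and 0.04 FPKM in MDA-MB-231. SSX1 and MAGEA6 are cancer-testis genes with close copies, so their values are uncertain. ICAM2 encodes an adhesion molecule and ADGRE1 a receptor of the adhesion G protein-coupled class, and they averaged 20.2 and 19.2 FPKM in 231-BR. Only 3 genes, PHGDH, MAGEA6 and CDH11, read at least 29.03 FPKM in every 231-BR library and at most 0.05 FPKM in every MDA-MB-231 library. CDH11, a cadherin, was named here after its values were seen. The likeness rests on one step between 2 lines.

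The cytosolic folate enzymes were higher in 231-BR. SHMT1, which splits serine in the cytosol, read 19.76, 20.7 and 19.89 FPKM in 231-BR and 15.86, 15.87 and 16.13 FPKM in MDA-MB-231, with a log2 fold change of 0.33 ± 0.03 (SE). MTHFD1, the trifunctional cytosolic enzyme that interconverts the one-carbon folates, read 136.95, 134.56 and 132.72 FPKM in 231-BR and 109.13, 109.91 and 109.97 FPKM in MDA-MB-231, with a log2 fold change of 0.30 ± 0.02. In both cases every 231-BR library exceeded every MDA-MB-231 library, and the direction held under both other scalings of the libraries.

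The mitochondrial enzymes were lower or level. SHMT2, the mitochondrial counterpart of SHMT1, read 112.02, 116.64 and 114.75 FPKM in 231-BR and 159.24, 160.47 and 168.61 FPKM in MDA-MB-231, with a log2 fold change of -0.51 ± 0.03. MTHFD1L makes formate in the mitochondria for export, and read 24.2, 24.26 and 24.92 FPKM in 231-BR and 42.45, 41.75 and 42.71 FPKM in MDA-MB-231. At 57.8% of the MDA-MB-231 mean (log2 fold change -0.79 ± 0.03), it was the lowest of the set relative to the parental line, and 77.8% of the genes tested had a smaller absolute change. MTHFD2, the mitochondrial dehydrogenase and cyclohydrolase that sits between them, was level. It read 38.46, 38.32 and 36.46 FPKM in 231-BR and 38.37, 38.97 and 36.79 FPKM in MDA-MB-231, with overlapping libraries and a log2 fold change of -0.01 ± 0.03.

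The balance between the compartments therefore differed. SHMT2 made up 85.0% ± 0.155 of the summed FPKM of SHMT1 and SHMT2 in 231-BR and 91.1% ± 0.174 in MDA-MB-231 (SD, n = 3 each). MTHFD1L made up 15.4% ± 0.403 of MTHFD1 and MTHFD1L in 231-BR and 27.8% ± 0.266 in MDA-MB-231. SHMT2, MTHFD2 and MTHFD1L together held 52.7, 53.6 and 53.6% of the FPKM of the 5 folate enzymes in 231-BR, against 65.8, 65.7 and 66.3% in MDA-MB-231. These shares are taken within a library and so do not depend on how libraries are scaled by a common factor, and the lines did not overlap in any of the 3. They are shares of transcript level and not of enzyme or flux.

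**Figure D3:**
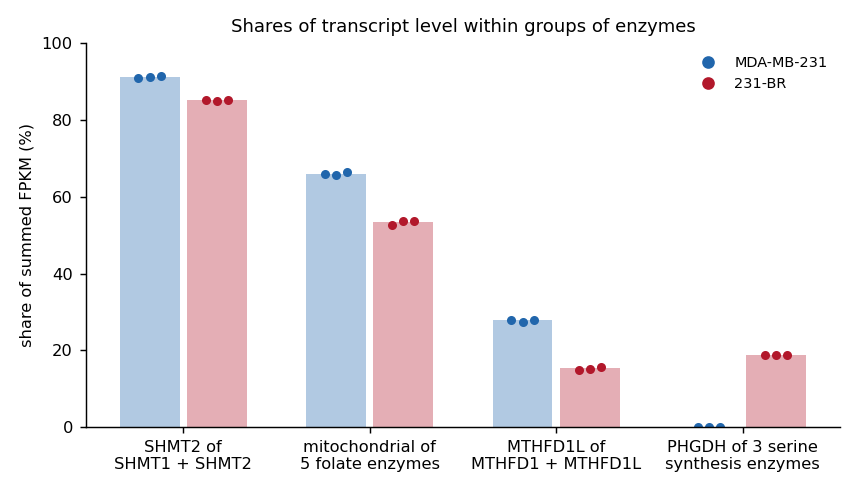
Share (%) of summed FPKM within groups of enzymes, with bars for the mean of 3 libraries and points for the libraries of MDA-MB-231 (blue) and 231-BR (red). The mitochondrial share of the 5 folate enzymes is 65.7 to 66.3% in MDA-MB-231 and 52.7 to 53.6% in 231-BR, and the PHGDH bar of MDA-MB-231, at 0.0237%, is too short to see.

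The transporters differed little and in opposite directions. SLC1A5, the main carrier of glutamine and other neutral amino acids in many tumor cells, read 127.62, 128.46 and 130.8 FPKM in 231-BR and 152.56, 157.49 and 164.53 FPKM in MDA-MB-231, with a log2 fold change of -0.29 ± 0.03. SLC1A4, a carrier of serine, alanine and cysteine, was the weakest of the set in 231-BR, at 3.62, 3.34 and 3.35 FPKM against 2.7, 2.81 and 2.92 FPKM in MDA-MB-231. The SLC1A4 libraries did not overlap, with a log2 fold change of 0.28 ± 0.07, but after quantile normalization the value was -0.01, so its direction depended on the scaling. Every other gene of the set kept its direction under median-of-ratios scaling and quantile normalization.

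**Figure D4:**
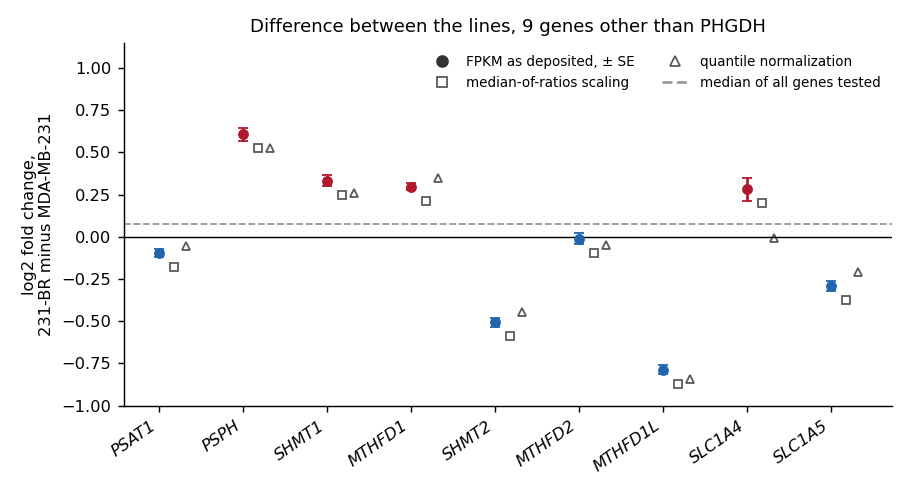
Log2 fold change (231-BR minus MDA-MB-231) of the 9 genes other than PHGDH, with SE bars (dots, red above 0 and blue below), and the values after median-of-ratios scaling (squares) and quantile normalization (triangles); the dashed line is the median of all genes tested, 0.08. PSPH is highest at 0.61, MTHFD1L lowest at -0.79, and SLC1A4 falls to -0.01 after quantile normalization.

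Ordered by FPKM, which is a level per transcript length, 231-BR ran from MTHFD1 (135) through SLC1A5 (129), SHMT2 (114), PSAT1 (108), MTHFD2 (37.8), PHGDH (29.4), MTHFD1L (24.5), SHMT1 (20.1) and PSPH (18.5) to SLC1A4 (3.44). No neighbours in this order overlapped between their 3 libraries. In MDA-MB-231 SHMT2 and SLC1A5 led and overlapped each other, followed without overlap by PSAT1, MTHFD1, MTHFD1L, MTHFD2, SHMT1, PSPH, SLC1A4 and PHGDH. Besides PHGDH, which moved from the last place to the sixth, MTHFD1 moved from the fourth place in MDA-MB-231 to the first in 231-BR, and MTHFD1L passed below MTHFD2. Libraries of a line were close to each other, with coefficients of variation of 1.05 to 4.63% for the 10 genes in 231-BR and 0.428 to 3.91% for the 9 genes other than PHGDH in MDA-MB-231.

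Around the set, 93 related genes could be tested of 111 listed. In limma's test with Benjamini-Hochberg adjustment over all genes, 39 were higher in 231-BR, 39 were lower and 15 were not called at an adjusted p under 0.05, with a median log2 fold change of -0.03. Over all 13465 genes, 44.4% were called higher and 32.9% lower, and after quantile normalization these shares were 35.8% and 42.7%. With a log2 fold change beyond 1 as well, 7 related genes were higher and 5 lower, where 10.9% of all genes were higher and 4.34% lower.

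SPTLC2 and SPTLC3, subunits of the palmitoyltransferase that joins serine to a fatty acid in the first step of sphingolipid synthesis, were higher in 231-BR. SPTLC3 read 9.41, 9.47 and 9.18 FPKM in 231-BR and 0.83, 0.66 and 0.78 FPKM in MDA-MB-231 (log2 fold change 3.47 ± 0.08, limma, adjusted p = 2.6e-10). SPTLC2 averaged 20.4 FPKM against 3.75 FPKM (2.42 ± 0.06, limma, adjusted p = 2.4e-10), while the shared subunit SPTLC1 was at 44.6 and 42.8 FPKM and did not pass the test (0.06 ± 0.04, limma, adjusted p = 0.17). SDSL, a serine dehydratase-like enzyme, was lower at 1.70 FPKM against 3.36 FPKM. In this list 6 of 11 genes were higher and 2 lower, beside 44.4% and 32.9% of all genes tested. The median of the list, 0.09, was close to that of all genes.

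Among the other amino acid transporters 4 of 12 tested were higher and 6 lower, where 44.4% of all genes tested were called higher and 32.9% lower. SLC38A4 read 4.09, 3.95 and 3.66 FPKM in 231-BR and 0.13, 0.08 and 0.08 FPKM in MDA-MB-231 (log2 fold change 4.36 ± 0.13, limma, adjusted p = 1.1e-09), and SLC38A2, a carrier of small neutral amino acids including serine, averaged 106 FPKM against 52.2 FPKM. SLC7A11, the cystine and glutamate exchanger, was lower at 15.4 FPKM against 35.4 FPKM. SFXN1, a carrier that brings serine into mitochondria, was lower by 0.40 on the log2 scale, at 37.1 FPKM against 48.9 FPKM. In the same list SFXN3 was also lower (-0.48) and SFXN2 was higher (0.34). These SFXN genes are named outside the rule for named genes and after their values were seen, SFXN1 because it feeds SHMT2.

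Of the other folate enzymes and carriers 5 of 12 were higher and 4 lower, close to the shares over all genes tested (44.4% and 32.9%). SLC46A1, the proton-coupled folate transporter, averaged 2.59 FPKM in 231-BR and 1.18 FPKM in MDA-MB-231 (log2 fold change 1.07 ± 0.08, limma, adjusted p = 4.9e-07). TYMS, which spends one-carbon folate on thymidylate, read 124.23, 127.88 and 126.48 FPKM in 231-BR and 255.71, 255.54 and 247.67 FPKM in MDA-MB-231 (0.499 of the MDA-MB-231 mean, limma, adjusted p = 1.8e-10). Of the purine synthesis enzymes, which take up formyl groups from folate at 2 steps, 4 of 6 were higher, namely PPAT (0.62), ATIC (0.54), PAICS (0.51) and GART (0.27). ADSL was lower (-0.21) and PFAS was not called (-0.02), beside 44.4% of all genes called higher and 32.9% lower. After either other scaling 4 were higher and 2 lower. The shares over all genes were then 39.0% and 38.5% (median-of-ratios scaling) and 35.8% and 42.7% (quantile normalization). ADSL and PFAS are named as the rest of the list. In the methionine cycle and transsulfuration 6 of 10 were higher and 2 lower, beside 44.4% and 32.9% of all genes tested. Among the higher ones were MTR, the methionine synthase, at 7.36 FPKM against 4.52 FPKM, and CTH (0.63). The lower ones were SARDH (-0.67) and AHCYL1 (-0.51). Of the glycine cleavage system 3 of 3 tested genes were called higher, but after either other scaling only 1 was called, and GLDC, its decarboxylase, was at 0.01 FPKM or less in all libraries.

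ATF4, the transcription factor of the amino acid response and a known activator of PHGDH, PSAT1 and SHMT2, was lower in 231-BR, with 274.41, 279.84 and 282.93 FPKM against 359.2, 367.91 and 377.37 FPKM in MDA-MB-231 (log2 fold change -0.40 ± 0.02, limma, adjusted p = 1.6e-07). In the list of its response, 19 of 26 genes were lower and 6 higher, with a median of -0.28. Over all genes tested, 32.9% were called lower and 44.4% higher. After median-of-ratios scaling 19 of the list were lower, beside 38.5% of all genes, and after quantile normalization 20, beside 42.7%. Among genes of this list with a mean of at least 1 FPKM in either line, VLDLR (-1.88), DDIT4 (-1.13) and CEBPB (-0.83) were the furthest below. STC2, under 1 FPKM in both lines and named after its values were seen, was at -1.24. NUPR1, a stress-induced nuclear protein, was higher, with 2.31, 2.42 and 2.13 FPKM against 0, 0 and 0.05 FPKM. In the same comparison PSAT1, SHMT2, MTHFD1L and SLC1A5 were lower in 231-BR, PHGDH, PSPH, SHMT1, MTHFD1 and SLC1A4 were higher (SLC1A4 not after quantile normalization), and MTHFD2 overlapped.

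**Figure D5:**
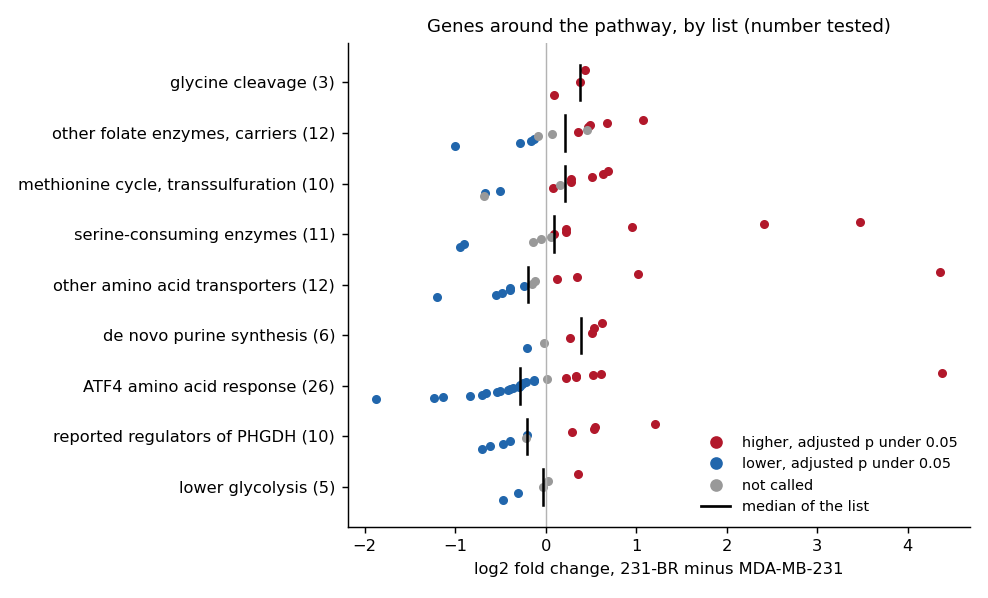
Log2 fold change (231-BR minus MDA-MB-231) of the related genes by list, with the number tested in parentheses; red and blue dots passed an adjusted p under 0.05 (higher and lower), grey dots did not, and black lines are list medians. The amino acid response list has 19 of 26 genes to the left with a median of -0.28, and SLC38A4, NUPR1 and SPTLC3 stand far to the right. Over all genes tested, 32.9% were called lower and 44.4% higher.

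TGATGNAAN occurred in the promoter windows of 3 genes of the set, MTHFD1L, SLC1A4 and SLC1A5, of which SLC1A4 was higher in 231-BR before quantile normalization and the other two were lower. It is shown in capitals with 10 bases on either side, on the strand of each gene, because it is the element through which ATF4 acts on its target genes:
MTHFD1L (chr6:150866347-150866375, plus strand): ccgccggctcTGATGCAATcgcgccgggc
SLC1A4 (chr2:64989381-64989409, plus strand): gcggctcccgTTTGCATCAtctccagccg
SLC1A5 (chr19:46784893-46784921, minus strand): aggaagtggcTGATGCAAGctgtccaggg

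In SLC1A4 the match is on the opposite strand. MTHFD1L has 4 annotated starts, and the one site lies within the windows of 3 of them. SLC1A4 has 2 starts and SLC1A5 has 3, and for each the match belonged to 1 of them. Which start each line used cannot be read from gene-level FPKM.

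Among the reported regulators of PHGDH other than ATF4, MYC was higher in 231-BR, with 83.96, 85.36 and 84.38 FPKM against 36.86, 36.85 and 35.71 FPKM (log2 fold change 1.21 ± 0.02, limma, adjusted p = 8.3e-11). NFE2L2, the oxidative stress factor NRF2, was lower (-0.70 ± 0.03, limma, adjusted p = 3.9e-09) and KEAP1, which targets it for degradation, was higher (0.54 ± 0.03, limma, adjusted p = 9.3e-08). CACGTG, the E-box, was found in promoters of 3 genes of the set, MTHFD1, MTHFD1L and SLC1A5, of which the first was higher in 231-BR and the others were lower. Of the glycolytic enzymes from GAPDH to PKM, which precede or drain 3-phosphoglycerate, PGK1 was higher (0.36) and PKM lower (-0.47), while PGAM1 (0.03) and ENO1 (-0.03) did not pass the test. GAPDH was lower with the deposited values (-0.31) and after median-of-ratios scaling (-0.39), and at 0.00 after quantile normalization. Quantile normalization gives a gene that keeps its rank in all libraries the same value in each. The 0.00 of this very abundant gene may be fixed in that way, so it does not test the decrease.

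Within a line the correlation of log2(FPKM + 0.1) between libraries was at least 0.9966, and between the lines it was at most 0.902, over 11124 genes with a mean of at least 1 FPKM. The mesenchymal and luminal keratin markers of the parental line, VIM (at least 2273 FPKM), KRT8 and KRT18, were high in all libraries, as was CD44. CDH1 was at 0.03 FPKM or less and PGR at 0.07 FPKM or less, whereas ESR1 was at 0.74 to 1.08 FPKM and EPCAM at 4.44 to 9.31 FPKM. ERBB2, which is expected low in a triple-negative line, was at 4.75, 5.02 and 5.08 FPKM in MDA-MB-231 and higher in 231-BR, at 9.61, 9.81 and 10.23 FPKM. The summed FPKM of 6 markers of other cell types (leukocytes, microglia, astrocytes, oligodendrocytes, neurons and endothelium) was 0.57 to 0.7 in 231-BR and 0.26 to 0.33 in MDA-MB-231, and AIF1 was at 0 in 5 of 6 libraries. The part of such cells in the differences above was not tested. In bulk RNA, fewer expressing cells and less RNA per cell cannot be told apart.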

How the data were processed

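RNA of 231-BR and MDA-MB-231 cells (3 libraries each) was sequenced on a BGISEQ-500. Per the submitters' processing notes, HISAT2 2.0.4, Bowtie2 2.2.5 and GRCh38.p12 were used, and the authors deposited FPKM per gene with 2 decimals. The program that computed them is not given in the sources used here. No read counts were used, so the depth per library is unknown and no counting interval is given. The sample files repeat the series table.

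With limma 3.58.1 in R 4.3.3, log2(FPKM + 0.1) was fitted with a term for the line (lmFit, eBayes with trend) for 13465 genes with a mean of at least 0.1 FPKM, with Benjamini-Hochberg adjustment over all of them. The code was tested on simulated data. Libraries were grouped by title, and 25 symbols turned into dates by a spreadsheet were replaced through gene identifiers. The genes of the set and the lists of related genes were chosen with earlier results of these data known. Named related genes were up to 4 per list with the largest absolute log2 fold change among those called with a mean of at least 1 FPKM in either line, plus ATF4. No enrichment test was run. Gene order came from RefSeq and positions from GENCODE release 29. Replicate numbers are not said to pair the libraries, and no pairing was used in the main fit. The correlations of same-numbered deviations were 0.09, -0.04 and -0.11. Alternatives covered the pseudocount, the filter, the scaling, the variance model, the replicate block, the fold criterion and each library left out.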

Additional observations from a re-analysis of the deposited data

How the results depend on the processing

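Counts of genes called, over all genes and over the related genes, stayed within 1.5 times of those reported under every alternative pseudocount, filter, scaling and variance model tried and without each library. An added fold criterion lowered the counts by its construction, from 5973 to 1467 higher and from 4433 to 584 lower over all genes, and from 39 to 7 and from 39 to 5 among the related genes. The replicate block gave 6015 genes higher and 4487 lower, and among the related genes 39 and 40, and it ended the call of no named related gene. Quantile normalization shifted the median over all genes tested by -0.14 on the log2 scale and median-of-ratios scaling by -0.08, and the share of calls that were higher went from 57.4% to 45.6% and 50.3%. SLC1A4 reversed to -0.0053 after quantile normalization. PHGDH ranged from 4.88 with a pseudocount of 1 to 9.60 with a pseudocount of 0.01, and from 7.78 to 7.94 without 1 library. Over the 34 named related genes, 469 of 476 repeats kept direction and call and 7 lost the call. Of these 7, 6 were for DLD and 1 for GAPDH after quantile normalization. That GAPDH value of 0.00 may be set by rank alone, so it does not test the decrease of GAPDH. Unknown depth limits what can be said of values near 0.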
